A study of Mus musculus with 4 samples.

Results

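The triglyceride lipases and lipid droplet proteins of peritoneal macrophages were followed through 10 genes, Lpl, Pnpla2, Abhd5, Lipe, Mgll, Plin2, Plin3, Hilpda, Dgat1 and Dgat2, found by gene symbol among the 13834 genes of the deposited count table. Each of the 10 had a row of its own. RNA was sequenced from 2 samples of Dnmt1fl/fl mice, in which the Dnmt1 gene is floxed and expressed, and from 2 samples of Dnmt1KO mice, which carry the floxed gene together with Cre recombinase under the LysM promoter, active in myeloid cells. The sample titles name the controls Dnmt1fl/fl, while their genotype field reads wt. Mice of both genotypes were 10 weeks old, and macrophages were collected 3 days after an injection of thioglycolate broth, which draws leukocytes into the peritoneal cavity. The treatment field reads isolate in all 4 samples. The labels do not say whether a sample was a single mouse, so p-values measure only the spread between these samples.

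Triglyceride is the storage form of fatty acids. Lipoprotein lipase, secreted by the macrophage, frees fatty acids from circulating lipoproteins, and inside the cell the DGAT enzymes join fatty acids to diacylglycerol and so complete the triglyceride molecule. Triglyceride and cholesteryl ester are kept in lipid droplets coated by perilipins. Droplet triglyceride is taken apart in steps by adipose triglyceride lipase, hormone-sensitive lipase and monoacylglycerol lipase, and macrophages filled with such droplets are known as foam cells.

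Totals ran from 20228071 to 24198943 counts per sample, and levels are given as CPM, the count relative to the size of the library, which was adjusted between samples by edgeR's TMM method. Dnmt1, the deleted gene, was at 86.6 and 67.0 CPM in Dnmt1fl/fl and at 37.0 and 42.7 CPM in Dnmt1KO replicates 1 and 2. The Dnmt1KO mean was 0.519 of the control mean (log2 fold change -0.95, standard error 0.24, unadjusted p = 0.00839 and adjusted p = 1.00 from edgeR). All 8 macrophage markers examined were listed, and their sum without Lyz2 was 5979 and 6000 CPM in Dnmt1fl/fl and 6553 and 5739 CPM in Dnmt1KO. Lyz2, the lysozyme gene whose LysM promoter drives the Cre, was at 29522 and 28579 CPM against 11348 and 15740 CPM. Dnmt1KO replicate 1 stood apart in markers of other cells. The 6 neutrophil markers listed, of 7, summed to 701 CPM there and to between 179 and 241 CPM in the other 3 samples. Without Csf3r, the remaining 5 summed to 20.9 and 103 CPM in Dnmt1fl/fl replicates 1 and 2 and to 532 and 23.5 CPM in Dnmt1KO. The 6 B cell markers summed to 130 CPM in Dnmt1KO replicate 1 against 318 to 525 CPM. The 5 markers of large peritoneal macrophages, the resident subtype of the cavity, summed to 132 CPM there against 316 to 361 CPM. None of 9 adipocyte markers, Adipoq, Plin1 and Cidec among them, was listed, in a table that holds only genes with a value above 0 in every sample. In bulk RNA, fewer cells of a type and less RNA per cell cannot be told apart.

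None of the 10 genes passed the comparison of Dnmt1KO with Dnmt1fl/fl. All 10 passed the filter on low counts. In edgeR's quasi-likelihood test with Benjamini-Hochberg adjustment over 12542 genes, 0 of the 10 passed at an adjusted p of 0.05, and 0 also at an unadjusted p of 0.05. DESeq2 and limma-voom likewise gave 0 of 10 at either limit. Among all genes tested the shares in edgeR were 0.0% and 0.279%. Both Dnmt1KO samples lay above both Dnmt1fl/fl samples for 2 of the 10, Pnpla2 and Dgat1, against 8.14% of all genes tested. No member had both Dnmt1KO samples below both Dnmt1fl/fl samples, against 8.56% of all genes tested. The median log2 fold change of the 10 was 0.31, beside 0.0046 over all genes, and the value was above 0 for 9 of them, Lpl being the exception, and for 50.9% of all genes. Without Dnmt1KO replicate 1 the median of the 10 was -0.0031 and 5 of them were above 0, beside a median of -0.0024 and 49.6% of all genes. Without Dnmt1KO replicate 2 the median was 0.52 with 9 above 0, beside -0.02 and 48.7% of all genes. Dnmt1KO replicate 1 was the highest of the 4 samples for 8 of the 10 genes, as it was for 38.8% of all genes tested. It exceeded Dnmt1KO replicate 2 for 9 of the 10 genes, against 49.3% of all genes.

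**Figure D1:**
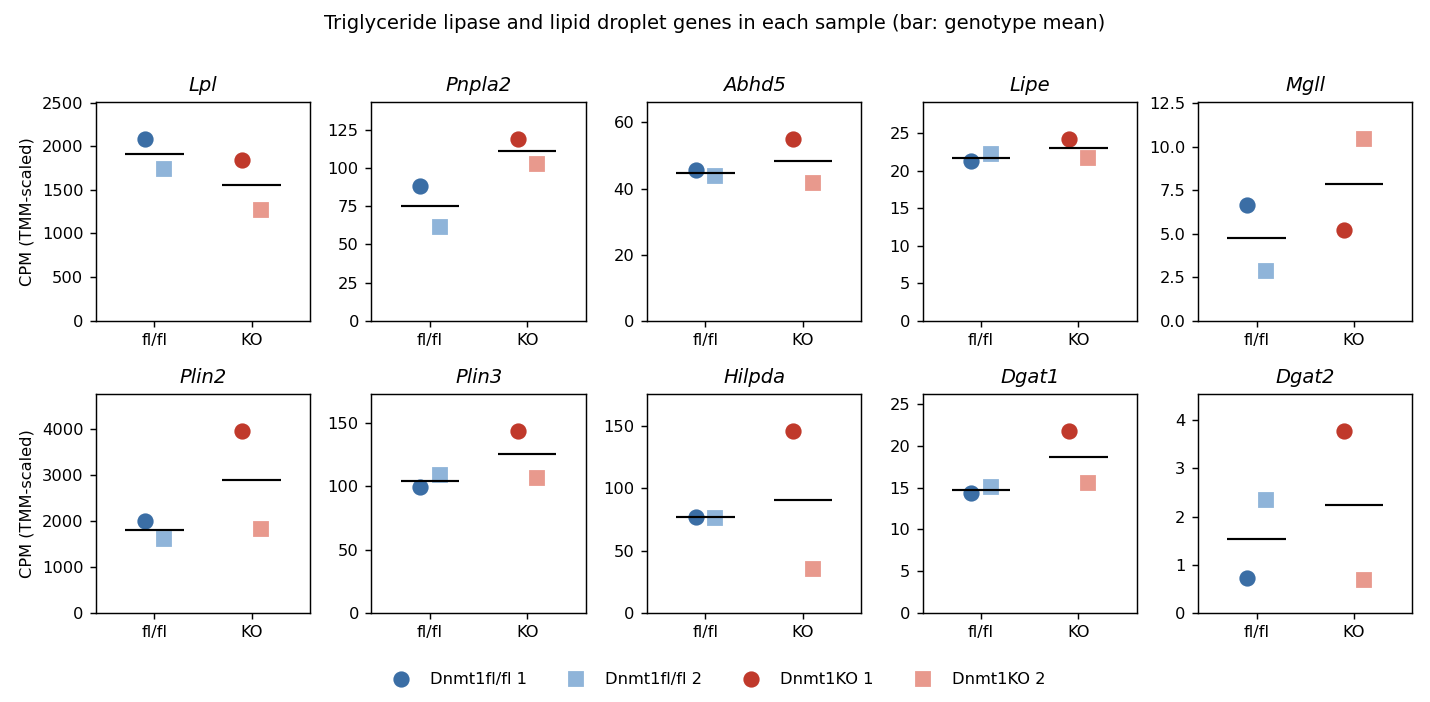
TMM-scaled CPM of each of the 10 genes on linear axes that start at 0, with a point for each sample and a bar for the mean of each genotype. The Dnmt1KO samples lie above both controls for Pnpla2 and Dgat1, and they lie on opposite sides of the controls for Hilpda, at 146 and 35.6 CPM.

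The supply of fatty acids from outside the cell was represented by Lpl, on mouse chromosome 8 from 68880491 to 68907448 on the forward strand (GRCm38, positions here and for the other genes from GENCODE). Lpl was measured at 2087 and 1737 CPM in Dnmt1fl/fl replicates 1 and 2 and at 1844 and 1274 CPM in Dnmt1KO replicates 1 and 2. The lowest value was in Dnmt1KO replicate 2, while Dnmt1KO replicate 1 fell between the controls. The means were 1912 ± 248 (SD, n = 2) and 1559 ± 403 CPM (SD, n = 2), a log2 fold change of -0.29 (standard error 0.30, 95% interval -1.03 to 0.44, unadjusted p = 0.362 from edgeR). With library totals in place of TMM factors both Dnmt1KO samples, at 1678 and 1330 CPM, were below both controls, at 2119 and 1801 CPM. The log2 fold change was -0.59 without Dnmt1KO replicate 1 and -0.05 without Dnmt1KO replicate 2. Transcripts of Lpl made up between 0.133% and 0.212% of all counts of a sample.

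The first step of droplet breakdown belongs to Pnpla2, which encodes adipose triglyceride lipase and lies on chromosome 7 from 141455198 to 141460743 on the forward strand. Pnpla2 was at 88.2 and 61.6 CPM in Dnmt1fl/fl and at 120 and 103 CPM in Dnmt1KO replicates 1 and 2. Both Dnmt1KO samples were above both controls, with TMM factors and with library totals alike. The mean went from 74.9 ± 18.8 (SD, n = 2) to 111 ± 11.9 CPM (SD, n = 2), which is 1.48 times the control level. On the log2 scale the difference was 0.57 (standard error 0.27, 95% interval -0.0947 to 1.23, unadjusted p = 0.0801 and adjusted p = 1.00 from edgeR). This was larger than the SD of replicates pooled over the genotypes, 0.28 in log2 units. The difference exceeded a gene's own pooled SD for 4 of the 10 genes, Pnpla2 among them, and for 2964 of the 12542 genes tested. The p of Pnpla2 was the smallest of the 10 genes. An exact two-sided permutation test of 2 samples against 2 can give no p below 0.333. Without Dnmt1KO replicate 1, the sample with the high neutrophil markers, the log2 fold change of Pnpla2 was 0.45, and without Dnmt1KO replicate 2 it was 0.67. It was 0.34 without Dnmt1fl/fl replicate 2 and 0.85 without Dnmt1fl/fl replicate 1.

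Because Dnmt1 copies methylation onto cytosines that precede a guanine, the 250 bases before a RefSeq transcript start of Pnpla2 are shown with each CG pair in capitals. The window is chr7:141454938-141455187 of GRCm38.p6, on the forward strand, and no methylation was measured in these samples.

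Pnpla2: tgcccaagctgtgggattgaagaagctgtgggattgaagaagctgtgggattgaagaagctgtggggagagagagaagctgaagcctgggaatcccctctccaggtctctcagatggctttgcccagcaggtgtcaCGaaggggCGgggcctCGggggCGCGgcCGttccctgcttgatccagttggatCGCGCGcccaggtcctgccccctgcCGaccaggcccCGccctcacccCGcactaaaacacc

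It holds 12 CG pairs, a number that 33.5% of 32851 RefSeq promoter windows of this length reach or exceed, where the median window holds 6. Among the 7 members with a window, the count ran from 1 CG in the window of a Lipe transcript to 40 CG in that of an Mgll transcript.

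Abhd5, the coactivator that adipose triglyceride lipase needs for full activity, lies on chromosome 9 from 122351608 to 122381524 on the forward strand. Its level was 45.7 and 43.7 CPM in Dnmt1fl/fl and 55.1 and 41.7 CPM in Dnmt1KO, so that the Dnmt1KO samples fell on either side of the controls. The log2 fold change was 0.12 (standard error 0.23, 95% interval -0.46 to 0.69), and it was -0.10 without Dnmt1KO replicate 1. G0s2, which encodes a protein inhibitor of the same lipase, was low, at 0.974 and 3.11 CPM in Dnmt1fl/fl and 5.05 and 0.593 CPM in Dnmt1KO, from 20, 78, 100 and 14 counts. A level of 3 counts, taken as the floor, corresponded to between 0.120 and 0.151 CPM, for counting error only.

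Lipe, the gene of hormone-sensitive lipase, which hydrolyses diacylglycerol and cholesteryl esters, had the smallest SD between replicates of the 10. It lies on chromosome 7 from 25379527 to 25398710 on the reverse strand. Its level was 21.3 and 22.2 CPM in Dnmt1fl/fl and 24.3 and 21.7 CPM in Dnmt1KO, and the log2 fold change of 0.08 (standard error 0.21, 95% interval -0.45 to 0.61, unadjusted p = 0.727 from edgeR) was smaller than the pooled SD of 0.09. For 15.6% of its exon bases, and for 15.9% of those of Abhd5, the annotation holds exons of an antisense gene on the opposite strand. Whether the counting used strand is not given in the sources used here, so reads of these pairs may not be told apart.

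Mgll encodes monoacylglycerol lipase, the last lipase of the sequence, and lies on chromosome 6 from 88724412 to 88828360 on the forward strand. It was a rare transcript, with 136 and 71 counts in Dnmt1fl/fl and 103 and 247 counts in Dnmt1KO replicates 1 and 2. In CPM these were 6.63 and 2.83 against 5.20 and 10.5. It was the member that ran against Dnmt1KO replicate 1, with its highest value in Dnmt1KO replicate 2 and its lowest in Dnmt1fl/fl replicate 2. Its log2 fold change of 0.73 was the largest in size of the 10, with a standard error of 0.55 and a 95% interval from -0.63 to 2.10. That difference was smaller than the pooled SD of 0.79, and it ran from 0.15 without Dnmt1KO replicate 2 to 1.47 without Dnmt1fl/fl replicate 1.

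The droplet coat was represented by Plin2 and Plin3. Plin2 encodes perilipin 2, the main droplet coat of macrophages, and lies on chromosome 4 from 86648386 to 86670060 on the reverse strand. Its level was 2008 and 1618 CPM in Dnmt1fl/fl and 3971 and 1819 CPM in Dnmt1KO replicates 1 and 2. The high value belonged to Dnmt1KO replicate 1 alone, and Dnmt1KO replicate 2 lay between the controls. The means were 1813 ± 276 (SD, n = 2) and 2895 ± 1522 CPM (SD, n = 2), a log2 fold change of 0.68 (standard error 0.42, 95% interval -0.38 to 1.73, unadjusted p = 0.165 from edgeR). Without Dnmt1KO replicate 1 the log2 fold change was 0.0025. With that sample kept and Dnmt1KO replicate 2 left out it was 1.13 (adjusted p = 0.0195 from edgeR), in a fit where 8.32% of 12754 genes had an adjusted p under 0.05. In such fits the genotype with 1 sample is assumed to vary like the other.

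Plin3, the gene of perilipin 3, a coat protein that moves between cytosol and droplet, lies on chromosome 17 from 56277476 to 56292873 on the reverse strand. Its level was 99.4 and 109 CPM in Dnmt1fl/fl and 144 and 107 CPM in Dnmt1KO. As with Plin2, Dnmt1KO replicate 1 was above the other samples and Dnmt1KO replicate 2 within the controls. The log2 fold change was 0.27 (standard error 0.25, 95% interval -0.35 to 0.88), and 0.04 without Dnmt1KO replicate 1.

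Hilpda encodes a small droplet protein, induced by hypoxia and by fatty acids, that inhibits adipose triglyceride lipase. It lies on chromosome 6 from 29272488 to 29275446 on the forward strand. The controls were close together at 77.1 and 75.9 CPM, while Dnmt1KO replicate 1 was at 146 and Dnmt1KO replicate 2 at 35.6 CPM. The Dnmt1KO samples differed from each other by 2.04 on the log2 scale, and the controls by 0.02. The log2 fold change of 0.25 (standard error 0.62, 95% interval -1.30 to 1.79) was a mean of opposite deviations, and the pooled SD was 1.02. It turned to -1.11 without Dnmt1KO replicate 1 (unadjusted p = 0.00029 and adjusted p = 0.460 from edgeR) and rose to 0.93 without Dnmt1KO replicate 2 (adjusted p = 0.0185 from edgeR). The part that neutrophils, other admixed cells or the macrophage subtype had in the values of Plin2 and Hilpda in Dnmt1KO replicate 1 was not tested.

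The 250 bases before a RefSeq start are shown for Plin2 and Hilpda too, as the most abundant of the 10 genes per length and a gene on which the Dnmt1KO samples disagreed in direction, again with CG pairs in capitals. The windows are chr4:86670060-86670309, reverse strand, for Plin2 and chr6:29272238-29272487, forward strand, for Hilpda, in GRCm38.p6. The Hilpda window is the one that ends at the gene's annotated start.

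Plin2: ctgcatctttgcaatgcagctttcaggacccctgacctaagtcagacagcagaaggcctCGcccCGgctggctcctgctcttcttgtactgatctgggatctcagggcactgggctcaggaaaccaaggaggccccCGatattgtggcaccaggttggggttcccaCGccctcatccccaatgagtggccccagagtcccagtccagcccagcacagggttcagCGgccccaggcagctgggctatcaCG

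Hilpda: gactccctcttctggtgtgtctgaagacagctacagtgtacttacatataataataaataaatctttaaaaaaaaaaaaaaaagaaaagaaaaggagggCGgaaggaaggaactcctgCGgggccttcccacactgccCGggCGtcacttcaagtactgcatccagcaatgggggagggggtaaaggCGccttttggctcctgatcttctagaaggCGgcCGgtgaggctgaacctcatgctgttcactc

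Plin2 has 6 CG pairs in its window and Hilpda 7, a number reached by 50.4% and 46.3% of all windows. The letters ACGTG, a form of the core that hypoxia-inducible factors bind, were searched on both strands. They occur in none of the Hilpda, Plin2 and Pnpla2 windows shown, while 16.6% of all windows hold them. The form GCGTG was not searched, and the Plin2 window holds it on the opposite strand, as CACGC. A second Hilpda window, of a transcript start 138 bases further on, lies partly inside the gene. It has 23 CG pairs, a number that 13.3% of all windows reach, and holds ACGTG 1 time.

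The final step of triglyceride synthesis is shared by 2 enzymes of unrelated sequence, encoded by Dgat1 and Dgat2. Dgat1 lies on chromosome 15 from 76502015 to 76511953 on the reverse strand. Its level was 14.4 and 15.1 CPM in Dnmt1fl/fl and 21.9 and 15.6 CPM in Dnmt1KO replicates 1 and 2. Both Dnmt1KO samples were above both controls, but Dnmt1KO replicate 2 exceeded the higher control by less than 1 CPM. The log2 fold change was 0.34 (standard error 0.27, 95% interval -0.33 to 1.02, unadjusted p = 0.255 from edgeR), beside a pooled SD of 0.25, and 0.07 without Dnmt1KO replicate 1. Dgat2, on chromosome 7 from 99153658 to 99182719 on the reverse strand, had 15 and 59 counts in Dnmt1fl/fl and 75 and 16 counts in Dnmt1KO. These low values correspond to 0.731 and 2.35 CPM against 3.79 and 0.678 CPM, and the genotypes overlapped. Its log2 fold change of 0.51 (standard error 0.94, 95% interval -1.82 to 2.85) was the least certain of the 10, and it was -1.20 without Dnmt1KO replicate 1.

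**Figure D2:**
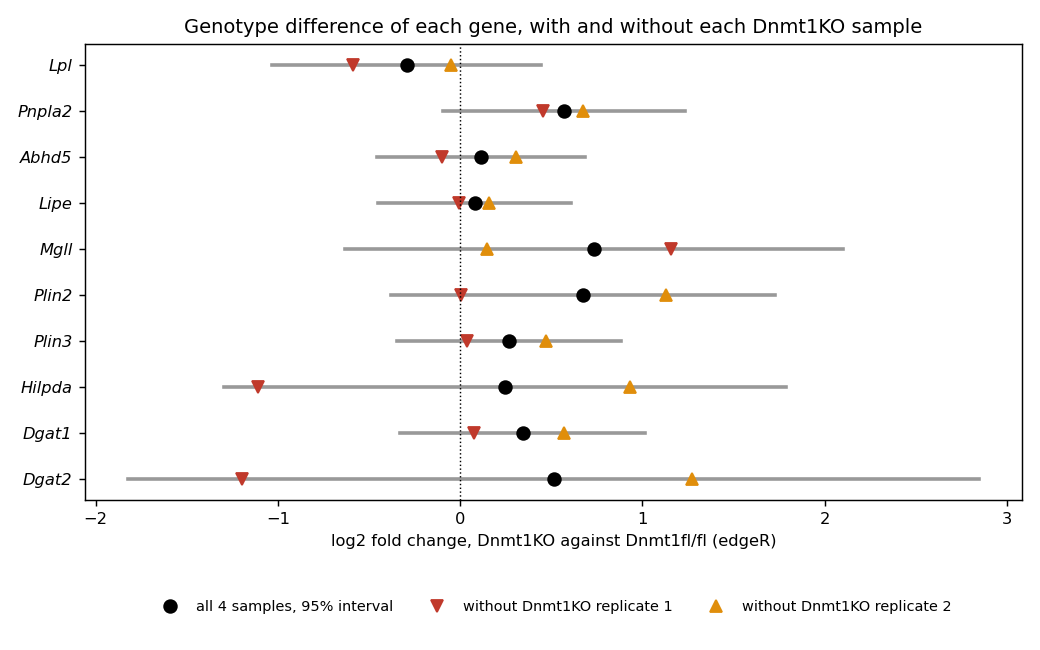
Log2 fold change of each gene in Dnmt1KO against Dnmt1fl/fl from edgeR, with all 4 samples (black points, bars for the 95% interval) and without either Dnmt1KO sample (triangles). All 10 intervals include 0, and the triangles lie on opposite sides of 0 for Abhd5, Lipe, Hilpda and Dgat2.

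Leaving out either Dnmt1KO sample changed which of the 10 genes came forward. Without Dnmt1KO replicate 2, an unadjusted p under 0.05 from edgeR was given to 5 of the 10, Pnpla2, Plin2, Plin3, Hilpda and Dgat1, each higher in Dnmt1KO, when 27.6% of all genes tested had one. Without Dnmt1KO replicate 1 it was given to 3 of the 10, Lpl and Hilpda, both lower, and Mgll, higher, when 2.73% of all genes tested had one. Hilpda was thus in both lists with opposite signs. Of the 10 log2 fold changes, those of Pnpla2, Mgll, Plin2, Plin3 and Dgat1 were above 0 in each of the 4 fits that left out a single sample, and that of Lpl was below 0 in each.

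Levels were also compared between the genes, per kilobase of the longest annotated transcript. Plin2 stood first with 960 ± 146 CPM per kilobase in Dnmt1fl/fl and 1533 ± 806 in Dnmt1KO (SD, n = 2 each), and 0.267% of the 12372 genes with a length had a mean at or above that of Plin2. Lpl followed at 465 ± 60.2 and 379 ± 98.0 CPM per kilobase, within the highest 1.15% of genes. Hilpda, at a mean of 85.2 CPM per kilobase over all samples, Pnpla2 at 35.4 and Plin3 at 31.5 came next, and the ranges of the 4 samples overlapped between Hilpda and Pnpla2 and between Pnpla2 and Plin3. Abhd5 at 14.7, Dgat1 at 8.86 and Lipe at 6.02 CPM per kilobase were each apart from their neighbours in the order. Mgll at 1.57 and Dgat2 at 0.834 CPM per kilobase were lowest, with overlapping ranges. Among the droplet lipases the order in level was therefore Pnpla2, Lipe and Mgll, and Dgat1 was above Dgat2 in every sample. Taking the length of all exons merged left the order of the 10 means as it was, although the share of genes at or above Plin2 became 0.428% and that at or above Lpl 2.31%, and the mean levels became lower, among them 670 CPM per kilobase for Plin2, 166 for Lpl, 7.82 for Abhd5, 5.47 for Dgat1 and 3.80 for Lipe.

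**Figure D3:**
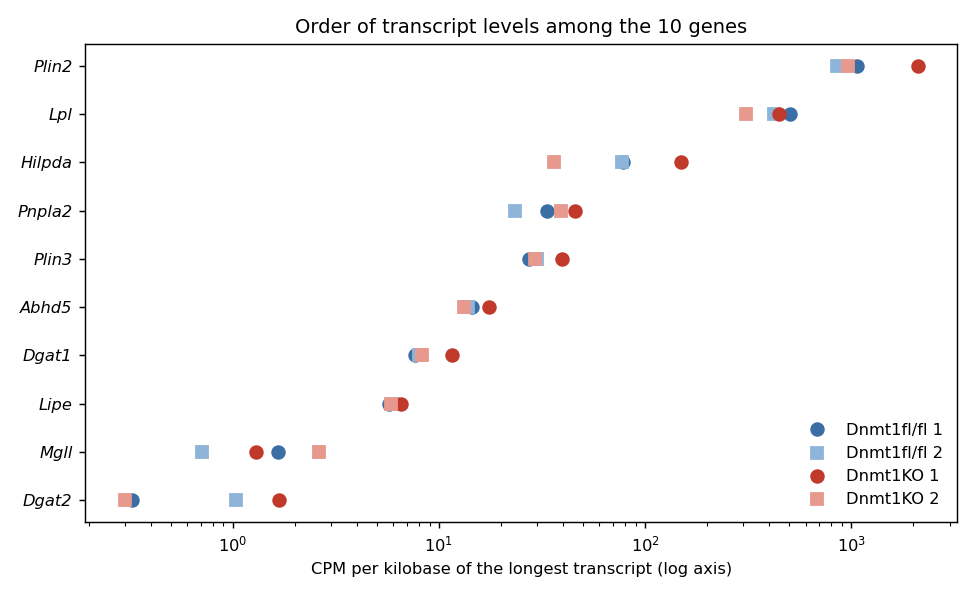
CPM per kilobase of the longest transcript on a log axis, with a point for each of the 4 samples and the genes ordered by their mean. Plin2 and Lpl lie above the other 8 genes in every sample, and Mgll and Dgat2 lie below them.

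Other genes of triglyceride and droplet metabolism were taken from a list of 78 genes, of which 57 were in the table and 52 passed the filter on low counts. In edgeR 0 of the 52 passed at an adjusted p of 0.05 and 0 at an unadjusted p of 0.05. DESeq2 and limma-voom gave 0 genes at an unadjusted p under 0.05 as well. Both Dnmt1KO samples were above both controls for 6 of the 52 and below them for 3, beside the 8.14% and 8.56% of all genes given above, and the median log2 fold change was 0.06. Of the partners of lipoprotein lipase, Gpihbp1, the endothelial protein that anchors it, was not listed. Angptl4, a secreted inhibitor of the enzyme, was at 12.1 and 4.67 CPM in Dnmt1fl/fl and 21.2 and 10.9 CPM in Dnmt1KO. It had the largest log2 fold change of the list, 0.94 (standard error 0.56, unadjusted p = 0.145 from edgeR), with overlapping genotypes. Apoc2, the cofactor of the enzyme, was at 29.6 and 59.6 against 79.1 and 23.2 CPM.

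Among droplet genes, Plin1, Plin4 and Cidec, droplet genes of adipocytes, were not listed, and Plin5 had 1 or 2 counts in each sample. Bscl2, which encodes seipin, a protein of droplet assembly at the endoplasmic reticulum, was at 61.1 and 57.3 CPM in Dnmt1fl/fl and 88.5 and 67.0 CPM in Dnmt1KO. Its log2 fold change of 0.39 (standard error 0.24, unadjusted p = 0.151 from edgeR) was the largest above 0 among those whose genotypes did not overlap. The next in size were Abhd4 at 0.25, Agpat1, an acyltransferase of phosphatidic acid synthesis, at 0.25, Tmem159, the gene of a seipin partner, at 0.25, and Spg20 at 0.13. On the lower side, log2 fold changes with non-overlapping genotypes included -0.16 for Acsl3, an acyl-CoA synthetase, and -0.09 for Pnpla8. With overlapping genotypes, Fitm2, a droplet assembly protein, gave -0.08, and Lpin1, the phosphatidic acid phosphatase upstream of the DGAT step, gave -0.02. Gpat4 and Gpat3, which start glycerolipid synthesis, had log2 fold changes of 0.27 and 0.19, also with overlap. None of these passed the test.

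**Figure D4:**
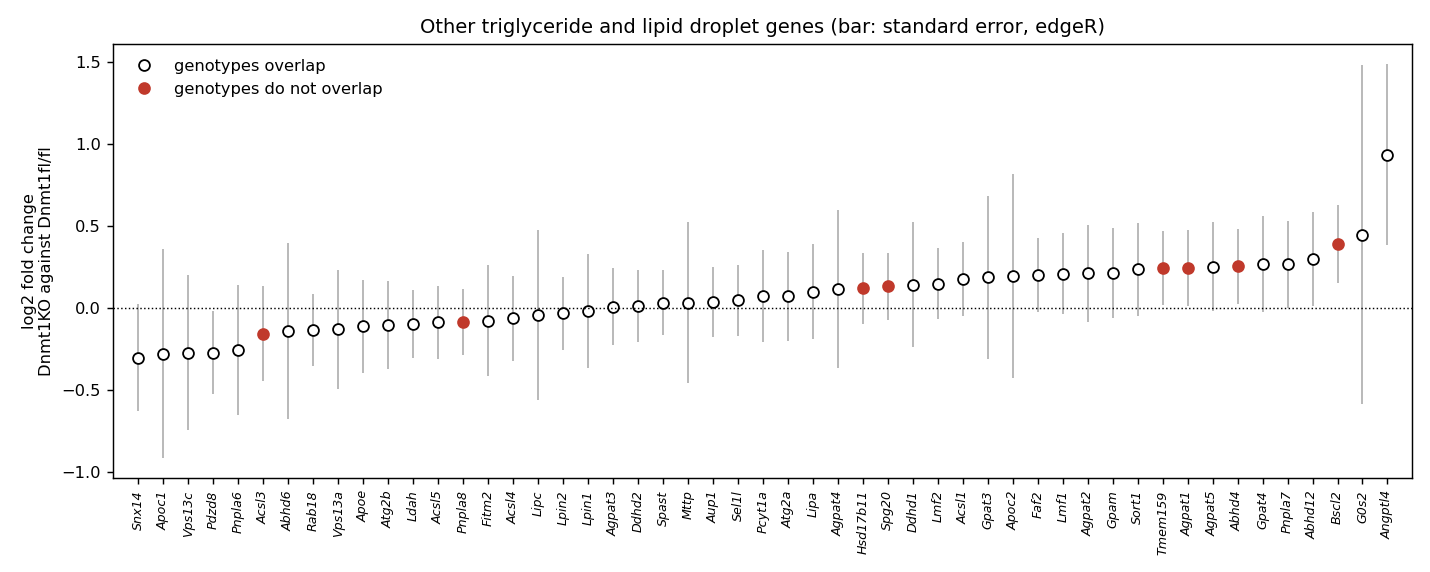
Log2 fold change of 51 of the 52 other triglyceride and droplet genes tested, in increasing order, with standard errors from edgeR. Filled points mark the 8 genes plotted whose genotypes do not overlap, and the values run from -0.30 for Snx14 to 0.94 for Angptl4.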

How the data were processed

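RNA from 4 samples of peritoneal macrophages, 2 Dnmt1fl/fl and 2 Dnmt1KO, was sequenced as paired-end reads. Per the study's methods and the submitters' processing notes, the authors aligned reads with HISAT2 2.0.5 to mm10 and counted them per gene with featureCounts 1.5.0-p3. The annotation is not given in the sources used here. The authors deposited estimated counts without normalization; whole numbers make up 72.6% to 76.4% of a sample's values. A shorter deposited table, holding rows of the whole table, was not used.

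Counts were rounded, filtered with filterByExpr and scaled with TMM (factors 0.910 to 1.04). Genotypes were compared with the quasi-likelihood F-test of edgeR 4.0.16 (R 4.3.3), two-sided, without a block, with Benjamini-Hochberg adjustment over 12542 genes. Standard errors and 95% intervals come from the F statistic. The common dispersion was 0.0837. The fit was tested on simulated counts. Also run were library totals, limma-voom (limma 3.58.1), DESeq2 1.42.0, other filters, a replicate block, each sample left out and merged exon length. Members and lists were chosen with earlier results of these data known. Named were all members, and list genes with an unadjusted p under 0.05 or, as there were none, the 5 largest differences each way without overlap, with partners of the members fixed by name. The values of 1 list gene are not reported here. Positions and lengths are from GENCODE M21 by symbol; promoter windows, for 7 of 10 members, are RefSeq on GRCm38.p6. Lpl, Dgat1 and Dgat2 had no window. Other calculations used Python 3.11.15.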

Additional observations from a re-analysis of the deposited data

How the results depend on the processing

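With the replicate number as a replicate block, edgeR called 0 genes at an adjusted p of 0.05 and 34 at an unadjusted p of 0.05, against 0 and 35 without it, and 1 triglyceride list gene at the unadjusted limit, against 0. Same-numbered samples did not deviate together (r = -0.41 across genes, which are not independent replicates). The crossed pairing, added after seeing that value, gave 3 genes at the adjusted limit, and at the unadjusted limit 297 genes, 2 of the 10 members and 1 gene of the triglyceride list. DESeq2 gave 1 gene at the adjusted limit, and no filter gave 60 at the unadjusted limit. Across the 4 fits that each left out a sample, genes at the adjusted limit ran from 0 to 1061, the latter without Dnmt1KO replicate 2, and at the unadjusted limit from 43 to 3521, members at the unadjusted limit from 0 to 5, members with non-overlapping genotypes from 4 to 8 (40.1% to 82.8% of all genes in the same fits) and triglyceride list genes from 0 to 15. Fewer samples overlap less often by construction, and the cause of the other changes was not tested. Hilpda turned to -0.0898 with limma-voom, -0.0839 with the block, -0.0796 with the crossed pairing and -1.11 without Dnmt1KO replicate 1. Over the fits without a sample, log2 fold changes ran from -0.10 to 0.30 for Abhd5, -0.0087 to 0.16 for Lipe and -1.11 to 0.93 for Hilpda, lowest without Dnmt1KO replicate 1 and highest without Dnmt1KO replicate 2. Dgat2 ran from -1.20 without Dnmt1KO replicate 1 to 1.61 without Dnmt1fl/fl replicate 2, and was -0.0803 without Dnmt1fl/fl replicate 1. On all 4 samples, 67 of 70 alternative values for the members kept the direction and stayed on the same side of an adjusted p of 0.05. Depth was lowest for Dgat2, with 15 to 75 counts a sample, and its pooled SD between replicates was also the largest of the 10.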

Other observations

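Ratios between members within a sample do not depend on scaling between samples; 4 were formed after the values had been seen. The count of Plin2 relative to that of Lpl was 0.962 and 0.932 in Dnmt1fl/fl replicates 1 and 2 and 2.15 and 1.43 in Dnmt1KO replicates 1 and 2, so that both Dnmt1KO samples were above both controls. Pnpla2 relative to its coactivator Abhd5 was 1.93 and 1.41 in Dnmt1fl/fl and 2.17 and 2.46 in Dnmt1KO, also without overlap. Hilpda relative to the lipase it inhibits, Pnpla2, was 0.874 and 1.23 against 1.22 and 0.346, and Dgat1 relative to Dgat2 was 19.7 and 6.42 against 5.77 and 22.9, both with overlap. For the first 2 ratios, the lack of overlap alone fixes p at 0.333 in an exact two-sided permutation test. This is the smallest p that 2 samples against 2 allow, and no share over other gene pairs was computed.

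Both Dnmt1fl/fl replicate 2 and Dnmt1KO replicate 1 were above the other 2 samples for 3 of the 10 members, Lipe, Plin3 and Dgat2, for 14 of the 52 triglyceride list genes, G0s2, Apoc2, Gpat3 and Agpat4 among them, and for 28.7% of all genes tested, so that the share among these genes was near that of all genes. Of the 6 neutrophil markers listed, S100a8, S100a9 and Ly6g had the same split, and Retnlg, Csf3r and Ltf did not, being lower in Dnmt1fl/fl replicate 2 than in replicate 1. S100a9 was at 5.55 and 60.5 CPM in Dnmt1fl/fl and at 320 and 8.34 CPM in Dnmt1KO, and Csf3r at 158 and 137 CPM against 169 and 158 CPM. All 6 summed to 179 and 241 CPM in Dnmt1fl/fl and to 701 and 182 CPM in Dnmt1KO. This split was chosen after the values were seen, and the part of neutrophils in it was not tested.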
